A study of Rattus norvegicus with 24 samples.

Results

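The genes described here are Fmo2 and the flavin monooxygenases measured with it, Fmo1, Fmo4 and Fmo5, in rat cerebellum. They were taken by symbol from the annotated expression table, keeping the probe set with the highest mean over 24 arrays, and they are 4 of 18137 genes with a symbol of their own. Each had 1 probe set. Fmo2 was selected on its measured level in shunted rats against Sham rats, so that contrast is given as a description with no test, for all 4 genes.

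Portocaval anastomosis (PCA) is surgery that connects the portal vein with the vena cava and so sends blood from the gut past the liver, and it is used as a model of hepatic encephalopathy. All rats were Sprague-Dawley, and the sources used here do not state their age. The groups were PCA with combined infusions of ammonia and lipopolysaccharide, a bacterial cell wall component that provokes inflammation (PCA+NH3+LPS, n = 4), PCA with lipopolysaccharide (PCA+LPS, n = 5), PCA with ammonia, given as ammonium acetate (PCA+NH3, n = 5), PCA alone (PCA, n = 5) and sham surgery (Sham, n = 5). The 4 shunted groups were taken 6 months after PCA, and the labels give no such time for Sham. The infused groups had 10 infusions, at intervals of 2 weeks, with ammonia at 20 µl/min for 3 h and lipopolysaccharide at 5 mg/kg. The sources used here do not say if PCA and Sham rats received vehicle. The labels do not tie numbered samples to separate animals, and the p-values cover only the spread among samples, which may be technical.

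Flavin monooxygenases are enzymes of the endoplasmic reticulum that use FAD, NADPH and oxygen to add an oxygen atom to nitrogen or sulfur in drugs, dietary amines and some natural metabolites. Fmo1 can oxidise hypotaurine to taurine in human and mouse, Fmo2 is best known as the lung form in many mammals, and Fmo5 favours oxidation of carbonyl compounds. In laboratory rat strains Fmo2 has been described as coding for a shortened protein that lacks activity. The arrays measured RNA, and no value here speaks to enzyme activity.

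In the rat RefSeq annotation (GRCr8), Fmo4 (chr13:77687909-77706100), Fmo1 (chr13:77715405-77747666) and Fmo2 (chr13:77755131-77777597) lie side by side. Fmo5 lies on another chromosome (chr2:187885741-187938468). RefSeq promoter windows were matched for 3 of the 4 genes, Fmo1, Fmo2 and Fmo5. Each covers 250 bases before to 50 bases after the start on which the window is built. That start is the edge of the gene span given above for Fmo1 only. For Fmo2 it lies slightly inside the span, and the Fmo5 window, chr2:187910714-187911013, lies well inside the Fmo5 span. The windows of the adjacent genes Fmo2 and Fmo1 are shown because these neighbours had unlike values across the arrays. Both are on the minus strand and read 5′ to 3′, and capitals mark the 6 letters AGAACA, a core of glucocorticoid receptor sites, on either strand.
Fmo2 promoter, chr13:77777485-77777784: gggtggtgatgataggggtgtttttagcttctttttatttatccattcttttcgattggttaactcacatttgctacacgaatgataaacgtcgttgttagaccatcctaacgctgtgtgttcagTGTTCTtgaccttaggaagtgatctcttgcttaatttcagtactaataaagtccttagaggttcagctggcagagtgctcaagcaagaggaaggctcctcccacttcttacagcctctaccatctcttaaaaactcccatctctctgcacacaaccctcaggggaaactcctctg
Fmo1 promoter, chr13:77747617-77747916: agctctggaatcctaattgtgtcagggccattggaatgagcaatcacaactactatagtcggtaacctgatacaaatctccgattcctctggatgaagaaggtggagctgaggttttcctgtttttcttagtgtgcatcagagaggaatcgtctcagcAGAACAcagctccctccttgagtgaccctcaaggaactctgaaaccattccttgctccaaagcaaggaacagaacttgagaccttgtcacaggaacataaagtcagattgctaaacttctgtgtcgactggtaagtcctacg
The AGAACA core began at position -125 in Fmo2, where it lies on the opposite strand, and at position -92 in Fmo1, counted from the start used for each window. It was absent from the Fmo5 window and was present in 20.7% of 33469 rat promoter windows of the same length, searched on both strands. The TATA core TATAAA was in none of the 3 windows and in 14.2% of all. The Fmo2 window also held the C/EBP letters TTGCNNAA at -99, found in 10.6% of all windows, a CCAAT box at -196 on the opposite strand, found in 37.5%, and E-boxes (CANNTG) at -183 and -62, found in 72.1%. The Fmo1 window held TTGCNNAA at 15 and a CCAAT box at -221 on the opposite strand. The aryl hydrocarbon receptor core GCGTG, found in 29.7% of all windows, was absent from the Fmo2 and Fmo1 windows. In the Fmo5 window it began at -146 on the opposite strand. The antioxidant response core TGACNNNGC, found in 12.1%, was in none of the 3 windows. A letter match is a description and shows no binding.

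Values are log2 expression made by the authors with RMA, so a difference of 1 is a 2-fold difference, and levels of different genes cannot be set against each other. Array medians lay between 5.6 and 5.7, and the correlation between arrays between 0.978 and 0.996. Markers of the main cerebellar cells were high, with mean levels up to 12.3 for Gabra6 of granule cells and 11.7 for Pcp4 of Purkinje cells. The 4 arrays that stood apart in choroid plexus markers were PCA+NH3 replicates 1, 2 and 5 and PCA+NH3+LPS replicate 3. The mean of 12 choroid plexus markers on them, relative to the mean over all arrays, was between 1.20 and 3.04, against at most 0.40 on any other array. Sham replicate 1 also stood apart, with the highest marker mean of all 24 arrays for brainstem (1.33), oligodendrocytes (1.09) and astrocytes (0.43) and the lowest for granule cells (-0.61) and Purkinje cells (-0.54), so results that rest on it are given with and without it. The other 4 Sham arrays lay between -0.31 and 0.52 in brainstem markers and between 0.02 and 0.22 in granule cell markers. Sham replicates 1 and 2 were lowest among Sham arrays in meninges markers. In whole tissue, fewer cells of a type and less RNA per cell cannot be told apart.

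Fmo2 was higher in the shunted groups than in Sham, by 0.95 on the log2 scale (SE 0.20), a 1.93-fold difference, and this was the 10th largest absolute difference of 18137 genes. It is the value on which the gene was chosen. Its levels were 5.6, 5.9, 6.3 and 6.1 in PCA+NH3+LPS arrays, 7.2, 6.6, 6.7, 7.9 and 6.4 in PCA+LPS arrays, 6.2, 6.2, 6.8, 6.6 and 6.4 in PCA+NH3 arrays, 6.7, 7.3, 7.1, 6.1 and 6.1 in PCA arrays, and 6.1, 5.5, 5.5, 5.4 and 5.3 in Sham arrays. All 19 shunted arrays lay above the Sham mean, and 14 of the 19 lay above every Sham array. The overlap came through Sham replicate 1, since the other 4 Sham arrays were below every shunted array. These counts use the contrast that picked Fmo2 and are given without the share over all genes, so they are a description only. Without Sham replicate 1 the difference was 1.08.

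The order of the group means, high to low, was PCA+LPS, PCA, PCA+NH3, PCA+NH3+LPS and Sham. Fmo2 averaged 5.98 ± 0.30 in PCA+NH3+LPS (SD, n = 4), 6.96 ± 0.60 in PCA+LPS (n = 5), 6.44 ± 0.26 in PCA+NH3 (n = 5), 6.66 ± 0.55 in PCA (n = 5) and 5.56 ± 0.31 in Sham (n = 5). The arrays of each group overlapped with those of the next group in this order. Every PCA+LPS and every PCA+NH3 array was above every Sham array, a pattern seen upward in 0.193% and 0.127% of genes. Because Fmo2 was chosen on its level against the same Sham arrays, this separation is a description and no independent support. A total of 3 of 5 PCA arrays and 1 of 4 PCA+NH3+LPS arrays were above every Sham array, given without the share over all genes. The differences from Sham were 0.42 (SE 0.27) for PCA+NH3+LPS, 1.40 (SE 0.25) for PCA+LPS, 0.88 (SE 0.25) for PCA+NH3 and 1.10 (SE 0.25) for PCA, and these comparisons share the Sham arrays.

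**Figure D1:**
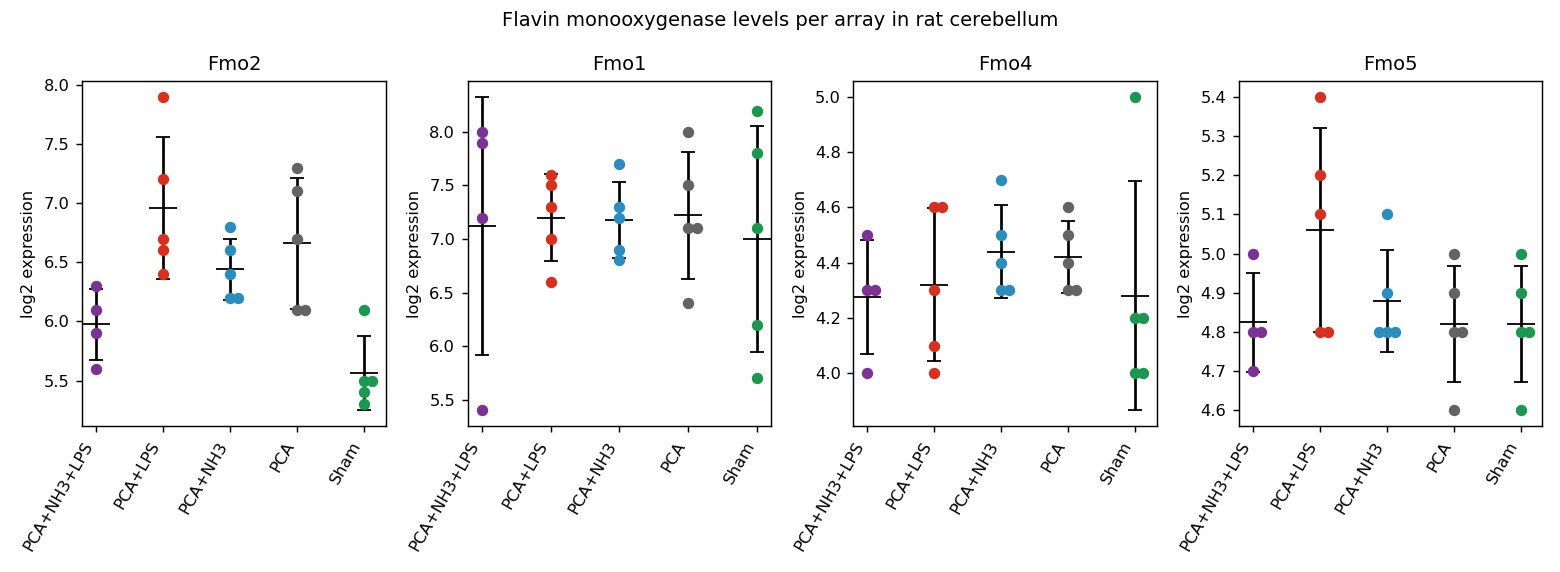
Log2 expression of Fmo2, Fmo1, Fmo4 and Fmo5 on each array, by group, with the mean (horizontal line) and SD (bars). Fmo2, chosen on its level against Sham, reaches 7.9 in PCA+LPS against at most 6.1 in Sham. Its PCA and PCA+NH3+LPS arrays overlap with Sham. Fmo1, Fmo4 and Fmo5 overlap across all groups. The vertical axes differ between genes.

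The other 3 genes had smaller estimates of the shunted minus Sham difference than Fmo2, and that of Fmo1 was imprecise. Fmo1 averaged 7.13 ± 1.20 in PCA+NH3+LPS, 7.20 ± 0.41 in PCA+LPS, 7.18 ± 0.36 in PCA+NH3, 7.22 ± 0.59 in PCA and 7.0 ± 1.05 in Sham (SD, n = 4, 5, 5, 5 and 5). The shunted minus Sham difference of Fmo1 was 0.18 (SE 0.35). It was 0.48 without Sham replicate 5, -0.14 without Sham replicate 2 and -0.52 without Sham replicates 1 and 2, so its size is uncertain.

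Fmo4, a family member with few known substrates, averaged 4.28 ± 0.21 in PCA+NH3+LPS, 4.32 ± 0.28 in PCA+LPS, 4.44 ± 0.17 in PCA+NH3, 4.42 ± 0.13 in PCA and 4.28 ± 0.41 in Sham (same n). Its shunted minus Sham difference was 0.08 (SE 0.12) and 0.26 without Sham replicate 1, which read 5.0 against 4.0 to 4.2 on the other Sham arrays. Fmo5 averaged 4.83 ± 0.13 in PCA+NH3+LPS, 5.06 ± 0.26 in PCA+LPS, 4.88 ± 0.13 in PCA+NH3, 4.82 ± 0.15 in PCA and 4.82 ± 0.15 in Sham (same n). Its shunted minus Sham difference was 0.08 (SE 0.08). The highest Fmo5 values, 5.4, 5.2 and 5.1, were on PCA+LPS arrays, and a PCA+NH3 array also read 5.1. For scale, 0.00551% of all genes passed an adjusted p of 0.05 in the shunted minus Sham contrast (limma, Benjamini-Hochberg adjustment over 18137 genes).

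The infusions were compared among the shunted groups, which the choice of Fmo2 used as a pool against Sham. The ammonia factor set the mean of PCA+NH3+LPS and PCA+NH3 against the mean of PCA+LPS and PCA, and the LPS factor set the mean of PCA+NH3+LPS and PCA+LPS against the mean of PCA+NH3 and PCA. Since the PCA and PCA+LPS arrays that were high in Fmo2 also stood in the contrast that picked it, the ammonia factor is not fully independent of that choice. None of the 4 genes passed the adjusted threshold in the ammonia factor, which 0.0165% of all genes passed, and 1 of the 4, Fmo2, had an unadjusted p under 0.05, as did 1011 of all genes (5.57%). Fmo2 was lower with ammonia by this estimate, -0.60 (SE 0.18, 95% interval for a single gene -0.98 to -0.22, 0.659-fold), with an adjusted p of 0.558 in limma. The 9 arrays with ammonia spanned 5.6 to 6.8 and the 10 without it 6.1 to 7.9, so the sets overlapped. The estimate was -0.53 without the 4 arrays high in choroid plexus markers. For Fmo1, Fmo4 and Fmo5 the ammonia factor was -0.06 (SE 0.32), -0.01 (SE 0.11) and -0.09 (SE 0.08), each with an adjusted p of 0.997, and for Fmo4 its sign turned with median centring of the arrays, to 0.0075.

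None of the 4 genes passed in the LPS factor either, which 0.0165% of all genes passed, and none had an unadjusted p under 0.05, against 3.09% of all genes. The LPS factor was -0.08 (SE 0.18, interval -0.46 to 0.30) for Fmo2, -0.04 (SE 0.32) for Fmo1, -0.13 (SE 0.11) for Fmo4 and 0.09 (SE 0.08) for Fmo5, with an adjusted p of 0.997 for each. The interaction asks whether the combined infusion departs from the sum of both, and 0% of genes passed it, with 675 genes at an unadjusted p under 0.05. Its value was -0.77 (SE 0.37, interval -1.52 to -0.0058) for Fmo2, with an adjusted p of 0.997 in limma, and Fmo2 was the 1 of 4 genes at an unadjusted p under 0.05. Among the 4 shunted groups, a moderated F-test gave F = 4.79 for Fmo2, with an adjusted p of 1, and 0.0165% of genes passed it.

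**Figure D2:**
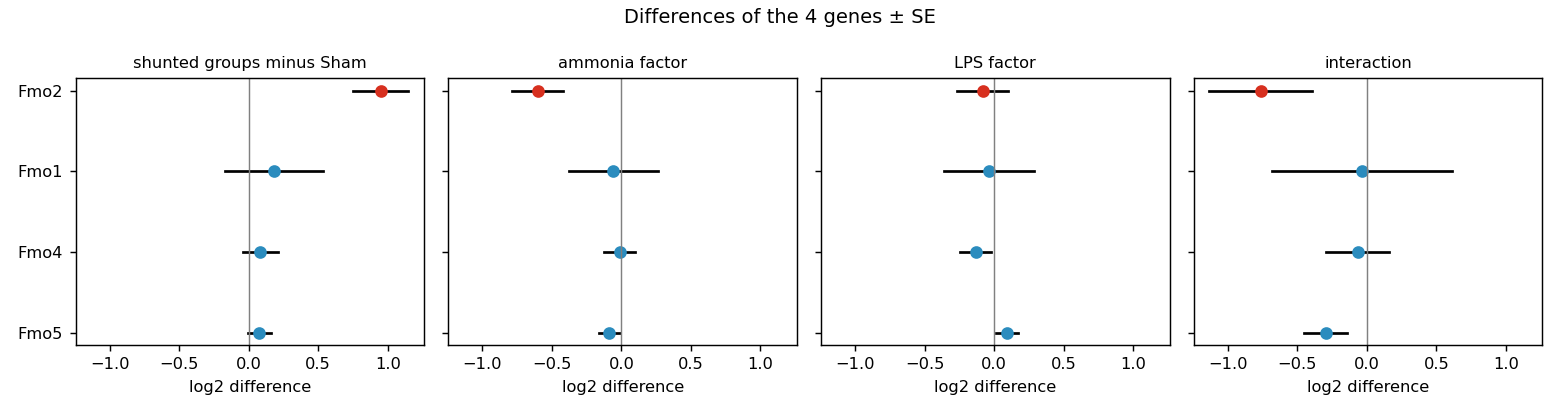
Log2 differences of the 4 genes (points) with SE (lines) for shunted groups minus Sham, the ammonia factor, the LPS factor and their interaction. Fmo2 is farthest from 0 in the first panel, the contrast on which it was chosen, at 0.95, and lies at -0.60 in the ammonia factor, and no gene passed the adjusted threshold in the tested panels.

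Each infused group was also set against PCA alone, and 0% of genes passed in any of these 3 comparisons, with 755, 727 and 903 genes at an unadjusted p under 0.05 for PCA+NH3+LPS, PCA+LPS and PCA+NH3. Against PCA, Fmo2 differed by -0.69 (SE 0.27, adjusted p = 0.997) in PCA+NH3+LPS, 0.30 (SE 0.25, adjusted p = 0.988) in PCA+LPS and -0.22 (SE 0.25, adjusted p = 0.981) in PCA+NH3, by limma. The PCA+LPS value was 0.065 without PCA+LPS replicate 4, the highest Fmo2 array at 7.9, and the PCA+NH3 value was 0.04 without the 4 choroid plexus arrays. Fmo5 was higher in PCA+LPS than in PCA by 0.24 (SE 0.11, adjusted p = 0.988), which did not pass.

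The contrast of PCA+NH3+LPS with PCA+LPS was added after the Fmo2 levels were seen. Every PCA+NH3+LPS array was below every PCA+LPS array in Fmo2, which held for 0.402% of genes in that direction. The difference was -0.99 (SE 0.27, interval -1.54 to -0.43, 0.505-fold), with an adjusted p of 0.784 in limma, and 0% of genes passed, with 818 at an unadjusted p under 0.05. Against PCA+NH3, likewise added, the PCA+NH3+LPS value of Fmo2 was -0.47 (SE 0.27, adjusted p = 0.997 in limma), where 0% of genes passed and 525 had an unadjusted p under 0.05.

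The 4 genes spread unequally within groups. The within-group SD was 0.77 for Fmo1, larger than for 99.6% of genes, 0.44 for Fmo2 (97.3%), 0.26 for Fmo4 (88.6%) and 0.17 for Fmo5 (59.7%), against a median of 0.16 over all genes. Fmo1 read 5.4, 8.0, 7.2 and 7.9 in PCA+NH3+LPS, 6.6, 7.5, 7.0, 7.3 and 7.6 in PCA+LPS, 6.9, 6.8, 7.3, 7.2 and 7.7 in PCA+NH3, 6.4, 8.0, 7.1, 7.1 and 7.5 in PCA, and 6.2, 5.7, 7.8, 7.1 and 8.2 in Sham. Its lowest and highest arrays, at 5.4 and 8.2, were in different groups, and Sham alone spanned 5.7 to 8.2.

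Fmo1 moved with markers of the meninges and of fibroblasts, the membranes around the brain and their collagen-producing cells. After each group's mean was taken off, the correlation of Fmo1 with the mean of 13 such markers over 24 arrays was r = 0.93 and rho = 0.92, each with p = 1e-05, the smallest that 100000 permutations within groups can give, and an adjusted p of 0.0005 over 50 relations. It was 0.89 without the 2 arrays farthest from the median, PCA+NH3+LPS replicate 1 and Sham replicate 2. PCA+NH3+LPS replicate 1, lowest in Fmo1, had a marker mean of -1.04 relative to all arrays, while Sham replicate 5, highest in Fmo1, had 0.92. The marker mean ranged over -1.04 to 0.72 in PCA+NH3+LPS, -0.53 to 0.62 in PCA+LPS, -0.23 to 0.69 in PCA+NH3, -0.59 to 0.42 in PCA and -1.25 to 0.92 in Sham. Sample numbers shared an order in these markers: replicate 5 was highest in all 4 groups that have one, and replicate 1 was lowest in 4 of 5 groups. The permutations take no account of this. With the mean of each sample number taken off as well, r of Fmo1 with the markers was 0.91. The genes most like Fmo1 within groups were Slc6a20a (r = 0.96), Slc22a6 (0.96), Slc6a13 (0.95) and Col1a2 (0.95), a collagen gene, and the last 3 are in the marker list.

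Fmo2, the next gene on the chromosome, had no detectable relation of this kind, and the difference between the correlations was not tested. Its within-group r with the meninges markers was -0.07 (permutation p = 0.731, adjusted 0.891), and with Fmo1 it was 0.02 (permutation p = 0.907, adjusted 0.94). Among markers of other cells, the values farthest from 0 were r = 0.49 for astrocytes and Bergmann glia, -0.41 for granule cells and 0.40 for oligodendrocytes, each with an adjusted permutation p of 0.199. For brainstem, blood, Purkinje cell, endothelium, microglia and macrophage, pericyte and choroid plexus markers r was 0.30, -0.26, -0.26, 0.24, 0.23, 0.19 and -0.02, with adjusted permutation p-values between 0.339 and 0.94, so no list passed. Without Sham replicate 1 these values were nearer 0 for astrocytes (0.40), granule cells (-0.28), oligodendrocytes (0.27), brainstem (0.13), Purkinje cells (-0.0023), endothelium (0.083), microglia (0.086) and pericytes (0.015).

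Within groups no pair of Fmo2 with another member passed after adjustment. Its r with Fmo4 was 0.43 (permutation p = 0.0421, adjusted 0.199), 0.66 without PCA+LPS replicate 4 and PCA replicate 2, and 0.31 without Sham replicate 1. Its r with Fmo5 was 0.30 (permutation p = 0.288, adjusted 0.545). Among 16058 genes ranked by likeness to Fmo2 within groups, Fmo4 was at rank 784, Fmo5 at 2261 and Fmo1 at 7325.

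**Figure D3:**
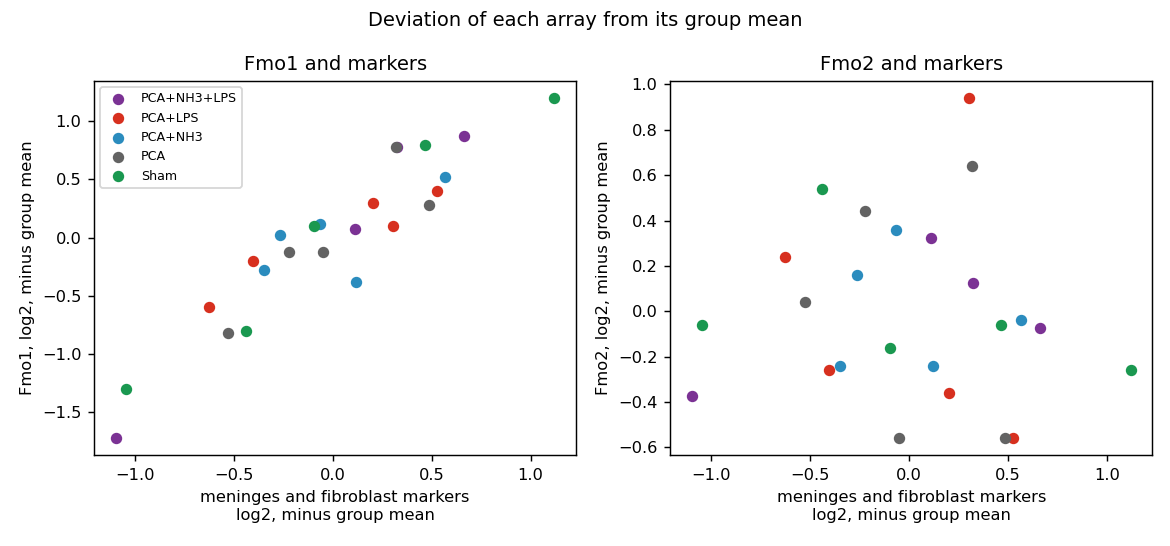
Deviation of each of 24 arrays from its group mean, in log2 units, coloured by group, for Fmo1 and for Fmo2 against the mean of meninges and fibroblast markers. The points of Fmo1 lie along a line with the markers (r = 0.93), and those of Fmo2 scatter (r = -0.07).

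The genes most like Fmo2 within groups, over the same 24 arrays, were Dll4 (r = 0.75), a Notch ligand of blood vessels, Or10n7 (0.72), Paqr7 (0.71), Tmem138 (0.70), Mmgt2 (0.70), Mlc1 (0.70), an astrocyte membrane protein, Or8b37 (0.69) and Ccdc162 (0.67). Those most opposed were Mtcp1, C8h3orf18, Sufu and Slc25a22, with r between -0.72 and -0.71. Over all arrays without taking off group means, the closest were Hsd11b1 (r = 0.79), which regenerates active glucocorticoid, Tmem138 (0.77), Pla1a (0.77), Heph (0.71), Arrdc3 (0.70), Hspb1 (0.69), Bcap29 (0.68) and Orai1 (0.67). These are ranks among many genes over arrays that share groups, and the first list was unstable: 1 of its 8 genes remained without PCA+LPS replicate 4 and 2 of 8 without PCA replicate 2. Or10n7 and Or8b37 of that list had low mean levels, 2.95 and 3.48. For Fmo4 the closest was Scel (r = 0.85) and for Fmo5 Fibin (r = 0.73). With 1 array left out these fell as low as 0.69 and 0.67.

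The genes around Fmo2 on chromosome 13 that are given here had smaller shunted minus Sham differences than its 0.95, a comparison given without a test. Moving along the chromosome, the differences were 0.31 (SE 0.12) for Myoc, -0.05 (SE 0.06) for Prrc2c, 0.08 for Fmo4, 0.18 for Fmo1, -0.09 (SE 0.14) for Prrx1, 0.03 (SE 0.08) for Gorab, 0.14 (SE 0.15) for Ntmt2 and -0.03 (SE 0.05) for Kifap3.

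**Figure D4:**
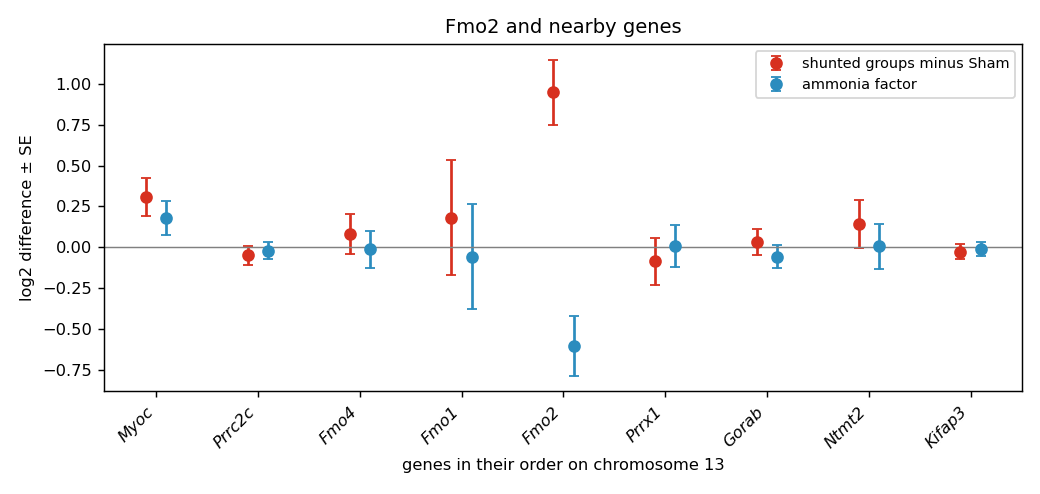
Log2 difference (points) with SE (bars) for Fmo2 and 4 nearby genes on each side, in chromosome order, for shunted groups minus Sham and for the ammonia factor. Fmo2 has the largest absolute value of each contrast among these 9 genes, 0.95 and -0.60, and Myoc is next in both, at 0.31 and 0.18.

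Genes of related pathways were followed as lists. None of the 32 measured cytochrome P450 genes, 26 conjugation enzymes, 17 genes of NADPH supply, 9 of taurine synthesis and transport, 13 other flavin and amine oxidases, 16 xenobiotic receptors or 17 glucocorticoid-responsive genes passed the adjusted threshold in the ammonia or LPS factor (limma). At an unadjusted p under 0.05 the ammonia factor had 0, 1, 0, 0, 2, 0 and 4 of them, in that order, and the LPS factor had 0, 0, 0, 1, 1, 0 and 2, while 5.57% and 3.09% of all genes did so. Apart from the 4 of 17 and 2 of 17 glucocorticoid-responsive genes and the 2 of 13 oxidases in the ammonia factor, each list had at most 1 gene. Sult1a1 is in both the conjugation and the glucocorticoid-responsive list, and the ammonia factor counts include it in both. The shunted minus Sham medians of the lists lay between -0.05 and 0.04, against -0.0025 over all genes. Without Sham replicate 1, the median of the other flavin and amine oxidases turned from -0.05 to 0.05. That of the P450 genes moved from -0.05 to -0.015. Each list median except that of the P450 genes turned sign with some single Sham array left out. In that contrast 7, 2, 0, 1, 0, 0 and 2 genes of the lists, in the same order, had an unadjusted p under 0.05 (limma). The share over all genes was 5.94%, and none of the list genes passed the adjusted threshold. The 7 of 32 P450 genes went in both directions, so their median does not show them.

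The glucocorticoid-responsive list had 14 of 17 genes below 0 in the ammonia factor, with a median of -0.10 against -0.005 over all genes. Zbtb16, a transcription factor induced by glucocorticoids, was at -0.76 (SE 0.16, adjusted p = 0.163) in the ammonia factor, and Per1, a clock gene, at -0.29 (SE 0.11, adjusted p = 0.853). Fkbp5, a co-chaperone of the glucocorticoid receptor, was at 0.17 in the LPS factor (SE 0.07, adjusted p = 0.997) and at -0.09 in the ammonia factor. The list's mean over genes, relative to all arrays, averaged -0.14 in PCA+NH3+LPS, 0.15 in PCA+LPS, -0.02 in PCA+NH3, 0.02 in PCA and -0.04 in Sham.

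No gene of the other lists passed either, and the 3 named for each had the smallest p of their list in the ammonia or LPS factor. In the taurine list, Cdo1, the enzyme that begins taurine synthesis from cysteine, was at -0.41 in the LPS factor (SE 0.14, adjusted p = 0.997), Cbs, which starts the route from homocysteine to cysteine, at 0.16 in the LPS factor (SE 0.08), and Slc6a6, the taurine transporter, at 0.15 in the ammonia factor (SE 0.08, adjusted p = 0.933). Among conjugation enzymes, the sulfotransferase Sult1a1 was at -0.56 (SE 0.22, adjusted p = 0.863) and the glutathione transferase family member Mgst3 at -0.23 (SE 0.12) in the ammonia factor, and Gsto1, another glutathione transferase, at -0.08 (SE 0.05) in the LPS factor. Among other flavin and amine oxidases, Xdh, which makes uric acid, was at -0.30 (SE 0.12, adjusted p = 0.853) and Sardh, which oxidises sarcosine, at -0.14 (SE 0.06) in the ammonia factor, and Pipox, which oxidises pipecolic acid, at 0.15 (SE 0.07) in the LPS factor.

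Of the NADPH list, Pgd and Idh1, both NADPH-producing enzymes, were at 0.19 (SE 0.09, adjusted p = 0.892) and 0.18 (SE 0.12) in the ammonia factor, and Nqo1, a quinone reductase, at 0.18 (SE 0.12) in the LPS factor. The P450 genes, with mean levels from 3.49 to 3.75, were Cyp2c11 at 0.14 (SE 0.07) and Cyp2c23 at -0.13 (SE 0.07) in the ammonia factor and Cyp1a2 at 0.13 (SE 0.07) in the LPS factor. The receptors were Ahr, the dioxin receptor, at 0.18 (SE 0.10) and Rxrb at -0.10 (SE 0.06) in the LPS factor, and Ppara, a receptor for fatty acids, at -0.13 (SE 0.08) in the ammonia factor.

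Several lists of cell markers lay mostly on 1 side of 0 in shunted minus Sham or in the ammonia factor. Fmo2 was chosen on the first of these contrasts and did not pass in the second. The median over all genes was -0.0025 in shunted minus Sham and -0.005 in the ammonia factor. Of 14 microglia and macrophage markers, 13 were above 0 in shunted minus Sham (median 0.26) and 13 below 0 in the ammonia factor (median -0.18), and in those contrasts none passed. Their mean level, relative to all arrays, ranged over -0.23 to 0.20 in PCA+NH3+LPS, -0.16 to 0.40 in PCA+LPS, -0.27 to 0.05 in PCA+NH3, -0.13 to 0.36 in PCA and -0.48 to 0.21 in Sham. All 12 choroid plexus markers were above 0 in the ammonia factor (median 1.04), none passing, and without the 4 choroid plexus arrays 2 of 12 were, with a median of -0.16. All 12 brainstem markers were below 0 in shunted minus Sham (median -0.18), none passing, but this came through Sham replicate 1: without it 6 of 12 were below 0 and the median was -0.015. Without the same array all 14 microglia and macrophage markers were above 0 (median 0.38). Other lists were one-sided too. Of 10 oligodendrocyte markers, 9 were below 0 in shunted minus Sham and 10 above 0 in the ammonia factor, none passing. In shunted minus Sham, all 12 choroid plexus markers were above 0 (median 0.47), none passing. Their median was 0.27 without PCA+NH3+LPS replicate 3, 1 of the 4 choroid plexus arrays. In the same contrast, 9 of 10 granule cell, 9 of 10 Purkinje cell and 11 of 13 meninges markers were above 0, none passing. The shunted minus Sham medians for oligodendrocytes, granule cells and Purkinje cells turned to 0.11, -0.056 and -0.035 without Sham replicate 1. The meninges median turned to -0.039 without Sham replicate 2. The part of these markers in the Fmo2 values was not tested.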

How the data were processed

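Gene expression in 24 cerebellum samples was measured on Affymetrix arrays, with fragments labelled by the WT Plus kit (per the labels). The deposited values are log2 expression made by the authors with RMA, per the submitters' processing notes. The sources used here name no version and no annotation build. Values are multiples of 0.1 between 1.5 and 13.5, a rounding step with an SD of 0.029. The series matrix held identical values (0 cells differed).

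Of 29016 probe sets, 19338 had 1 symbol, 1521 several and 8157 none. Symbols were updated through the rat RefSeq table (14126 current, 3388 updated, 1824 kept), and the probe set with the highest mean stood for each gene, which left 18137 genes. A single linear model with a mean per group was fitted with limma 3.58.1 in R 4.3.3 (19 residual and 4.39 prior degrees of freedom), and p-values were adjusted over all genes by Benjamini-Hochberg with a threshold of 0.05. In simulated data for the ammonia factor, 200 of 18137 genes drawn at random were given a log2 change of 1. Of these, 99.1% passed the adjusted threshold. Fmo2 spread more within groups than the median gene (SD 0.44 against 0.16), and its ammonia estimate was smaller in size, -0.60. The simulated share therefore does not give the rate for Fmo2. Arrays give no read depth, so the number of arrays limits the precision, with a median SE of 0.099 between groups of 5.

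The members, lists and tests were chosen with earlier results of these data known. Genes outside the family were named by rule: the 8 highest and 4 lowest correlations with Fmo2 within groups, the 8 highest over all arrays, the 4 highest for each other member, 4 genome neighbours on each side, and in each pathway list the 3 of smallest p in either infusion factor. Genes with locus-type symbols were left out of the ranking. Family genes other than the 4 members are not reported here, and were left out of the ranking and of the neighbours. Correlations used deviations from group means and 100000 permutations within groups (Python 3.11.15). The labels give the sample numbers no meaning, so the main model and the permutations do not pair samples by number. That 23 of 46 same-numbered pairs correlated above 0.1 does not decide whether they are paired. Alternatives were gene summary, features tested, a filter on low values, cyclic loess, median centring, empirical Bayes options, array weights, the samples in the fit, a replicate block, the series matrix, and leaving out arrays.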

Additional observations from a re-analysis of the deposited data

Results flagged for a closer look

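Sham replicate 1 lay apart from the other Sham arrays in 2 genes. It read 6.1 in Fmo2, where the next Sham array was at 5.5, a gap of 0.75 of the group's range. It read 5.0 in Fmo4, where the next was at 4.2, a gap of 0.8 of the range. The same array was the highest of 24 in brainstem, oligodendrocyte and astrocyte markers and the lowest in granule cell and Purkinje cell markers. Chance alone sets apart about 5% of groups in this way, and no explanation was tested.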

How the results depend on the processing

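No call of the 4 genes changed under any alternative, since none passed in the tested contrasts. The Fmo2 difference between shunted groups and Sham lay between 0.88 and 1.08 with each array left out in turn, and between 0.93 and 1.11 under the other alternatives. Its ammonia factor lay between -0.67 and -0.49 with each array left out (smallest adjusted p 0.428) and between -0.65 and -0.53 otherwise (smallest adjusted p 0.323). Its interaction lay between -0.93 and -0.53 and between -1.13 and -0.65, and its PCA+NH3+LPS minus PCA+LPS difference between -1.13 and -0.75 and between -1.09 and -0.91.

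The sample number as a replicate block gave -0.65 for the Fmo2 ammonia factor (adjusted p = 0.402) and 0.93 for shunted minus Sham, and 12 of 24 samples correlated best with their own number, a hint from the data that numbers share something (mean r 0.087 for the same number, -0.02 for other numbers). The block turned the sign for Fmo1 in the ammonia factor (0.0175), the LPS factor (0.0375) and the interaction (0.115). Median centring turned the Fmo1 interaction (0.085), the Fmo4 ammonia factor (0.0075) and the Fmo4 interaction (0.055). Array weights turned the Fmo1 interaction (0.027) and the Fmo4 ammonia factor (0.014). Without the 4 choroid plexus arrays, PCA+NH3 minus PCA turned to 0.04 for Fmo2 and the ammonia factor to 0.063 for Fmo4. Taking off the sample number as well as the group, as a replicate block chosen after seeing the data, gave r = 0.91 for Fmo1 and 0.27 for Fmo2 with the meninges markers. The cause was not tested.

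With each array left out, signs also turned for Fmo1 in shunted minus Sham (-0.14 to 0.48), the ammonia factor (-0.20 to 0.23), the LPS factor (-0.18 to 0.25) and the interaction (-0.33 to 0.54), for Fmo4 in the ammonia factor (-0.0525 to 0.033) and the interaction (-0.145 to 0.027), and for the correlation of Fmo2 with the meninges markers (-0.22 to 0.0015). The correlation of Fmo1 with those markers stayed between 0.91 and 0.94. Fmo4 and Fmo5 average under 5, so the filter on low values gave them no value. Over all genes, 3 passed in the ammonia factor and 3 in the LPS factor, against 1 to 4 in each with an array left out, and 0 to 4 and 1 to 4 under the other alternatives. The comparisons of single groups had 0 in the model used and up to 4 under an alternative, array weights for PCA+NH3+LPS minus PCA. The number of arrays limits what small differences can be told from 0.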
